A study of Homo sapiens with 6 samples.

Results

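Kinesins are motor proteins that walk along microtubules or take them apart at their ends, and the CENP proteins build the centromere and the kinetochore, the structure by which a chromosome holds on to the spindle. The genes described here are those whose symbol is KIF followed by a number, with an optional letter and digit, or CENP followed by a single letter. The rule found 56 of the 23368 gene symbols in the count files: 39 kinesins and 17 CENP genes. By their known roles the kinesins were divided into 14 mitotic kinesins, 15 transport kinesins and 10 other kinesins. Genes of the same machinery that carry other symbols, such as CENPC1, KIFC1 and KIFAP3, fall outside the rule and are given apart as related genes.

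RNA was sequenced from NB4, a human cell line established from acute promyelocytic leukemia, with 3 libraries of cells left without treatment and 3 libraries of cells exposed to 10 µM maltonis for 24 h. Maltonis is a synthetic molecule derived from maltol, and its stock was dissolved in water. All libraries came from this 1 cell line, and no vehicle group was analysed here. The study made biological triplicates, but the sample labels do not say that the libraries came from separate cultures, so the p-values measure the spread between these libraries.

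The libraries held 18492154 to 38205483 counts, and 3 counts correspond to between 0.0785 and 0.162 CPM, the count after scaling every library to the same size. All 10 promyelocytic markers had counts in the files, with MPO at 12892 to 15528 CPM in not treated and 7298 to 7553 CPM in maltonis-treated cells. Of these markers, 4 were higher and 5 were lower, where 31.9% of all genes tested were higher and 32.1% were lower. ELANE went from 0.0603 to 0.166 CPM to 14.5 to 21 CPM. CTSG went from 103 to 113 CPM to 539 to 576 CPM and KIT from 0.386 to 0.633 CPM to 2.95 to 3.67 CPM. Among 7 markers of other cell types, HBB was at 0 in every library and CD3E, COL1A1 and RBFOX3 did not pass the filter on low counts, while PECAM1, KRT18 and NCAM1 did. The summed level of those 7 markers was 46.6 to 67.6 CPM without treatment and 35.7 to 41.4 CPM with maltonis. The 3 that passed the filter went in different directions, NCAM1 from 19.4 to 35.7 CPM to 5.4 to 6.35 CPM and KRT18 from 18.2 to 20 CPM to 13.5 to 14.7 CPM, while PECAM1 went from 7.51 to 13.4 CPM to 15.8 to 20.3 CPM. Their part in the results was not tested.

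In a dividing cell, mitotic kinesins push spindle poles apart, move and align chromosomes, trim microtubule ends and bundle the midzone where the cell will divide. Transport kinesins carry vesicles, mitochondria and protein complexes along microtubules between divisions. A nucleosome holding CENPA marks the centromere, the inner CENP subunits assemble on it, and the outer kinetochore binds microtubules. Many genes of mitosis are held low outside G2 and M phase through a promoter element called the cell cycle genes homology region (CHR), often placed next to a CCAAT box.

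RefSeq promoters, 250 bases before to 50 after the gene's start, were found for 47 of the 56 members. The 120 bases just before the start are printed for 5 of them on the gene's own strand, from GRCh38.p14, to show what the classes look like at the base level. KIF11 and CENPA are lower, KIF18A is higher and KIF23 is not past the threshold after maltonis, while KIF3C is a transport kinesin that is lower. Capitals mark the CHR (TTTGAA, or TTCAAA when read on the other strand), the CCAAT box (CCAAT or ATTGG) and the E2F core (TTGGCGC or its reverse complement).
KIF11, chr10:92593010-92593129, plus strand: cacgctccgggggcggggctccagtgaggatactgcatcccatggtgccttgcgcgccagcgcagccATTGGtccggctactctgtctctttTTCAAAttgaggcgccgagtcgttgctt
KIF18A, chr11:28108157-28108276, minus strand: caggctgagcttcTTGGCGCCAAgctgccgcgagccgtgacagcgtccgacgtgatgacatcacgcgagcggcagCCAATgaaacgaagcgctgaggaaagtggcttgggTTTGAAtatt
KIF23, chr15:69414229-69414348, plus strand: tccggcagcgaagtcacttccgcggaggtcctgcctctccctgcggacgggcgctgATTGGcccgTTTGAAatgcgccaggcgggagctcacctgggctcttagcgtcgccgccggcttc
CENPA, chr2:26785936-26786055, plus strand: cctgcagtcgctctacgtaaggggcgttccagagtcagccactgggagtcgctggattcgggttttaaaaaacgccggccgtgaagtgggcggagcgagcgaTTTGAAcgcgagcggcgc
KIF3C, chr2:25982498-25982617, minus strand: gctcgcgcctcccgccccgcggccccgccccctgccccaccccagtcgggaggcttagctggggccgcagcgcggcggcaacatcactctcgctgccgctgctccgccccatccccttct

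Counting -1 as the base just before the start, the CHR begins at -28 in KIF11, -10 in KIF18A, -55 in KIF23 and -18 in CENPA, and no searched motif lies in the KIF3C promoter. TTTGAA, searched on both strands, occurred in 9 of 14 mitotic kinesin promoters (64.3%), 4 of 14 CENP promoters (28.6%), 1 of 12 transport kinesin promoters (8.33%) and 0 of 7 promoters of other kinesins, against 15.4% of all 27305 promoters of the same length. CCAAT occurred in 71.4% of mitotic kinesin, 42.9% of CENP, 25% of transport kinesin and 35.7% of all promoters. E2F cores (TTCCCGC or TTGGCGC) occurred in 3 of 14 mitotic kinesin and 3 of 14 CENP promoters, against 9.33% of all. The variant TTCGAA, at 1.45% of all promoters, occurred in 1 mitotic kinesin, 1 CENP and 1 other kinesin promoter. The E box CACGTG occurred in 3 of 14 CENP promoters and 0 of 14 mitotic kinesin promoters, against 7.43% of all. Over the mitotic kinesins and CENP genes, TTTGAA was in the promoter of 3 of 9 members that were higher, 4 of 8 that were lower and 6 of 10 that did not pass the threshold. Members with the element thus went in either direction, and these matches are descriptions of letters, not of binding.

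Of the 56 members, 48 passed the filter on low counts. KIF2B, KIF6 and KIF12 had no count in any library, and KIF1A, KIF5A, KIF19, KIF25 and KIF26A were close to 0. After maltonis, 17 of the 48 were higher, 15 were lower and 16 did not pass a false discovery rate (FDR) of 0.01 in edgeR's quasi-likelihood test. Over all 13209 genes tested, 31.9% were higher and 32.1% were lower, so the members' shares lay near the background. The larger change, which also asks for a change of more than about 2.5-fold, was met upward by 1 member and downward by 7, where 9.96% of all genes met it upward and 10.4% downward. The values of the groups did not overlap in 39 of the 48 members, and in 76.6% of all genes. The median log2 fold change was 0.07 over the members and 0.01 over all genes tested.

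**Figure D1:**
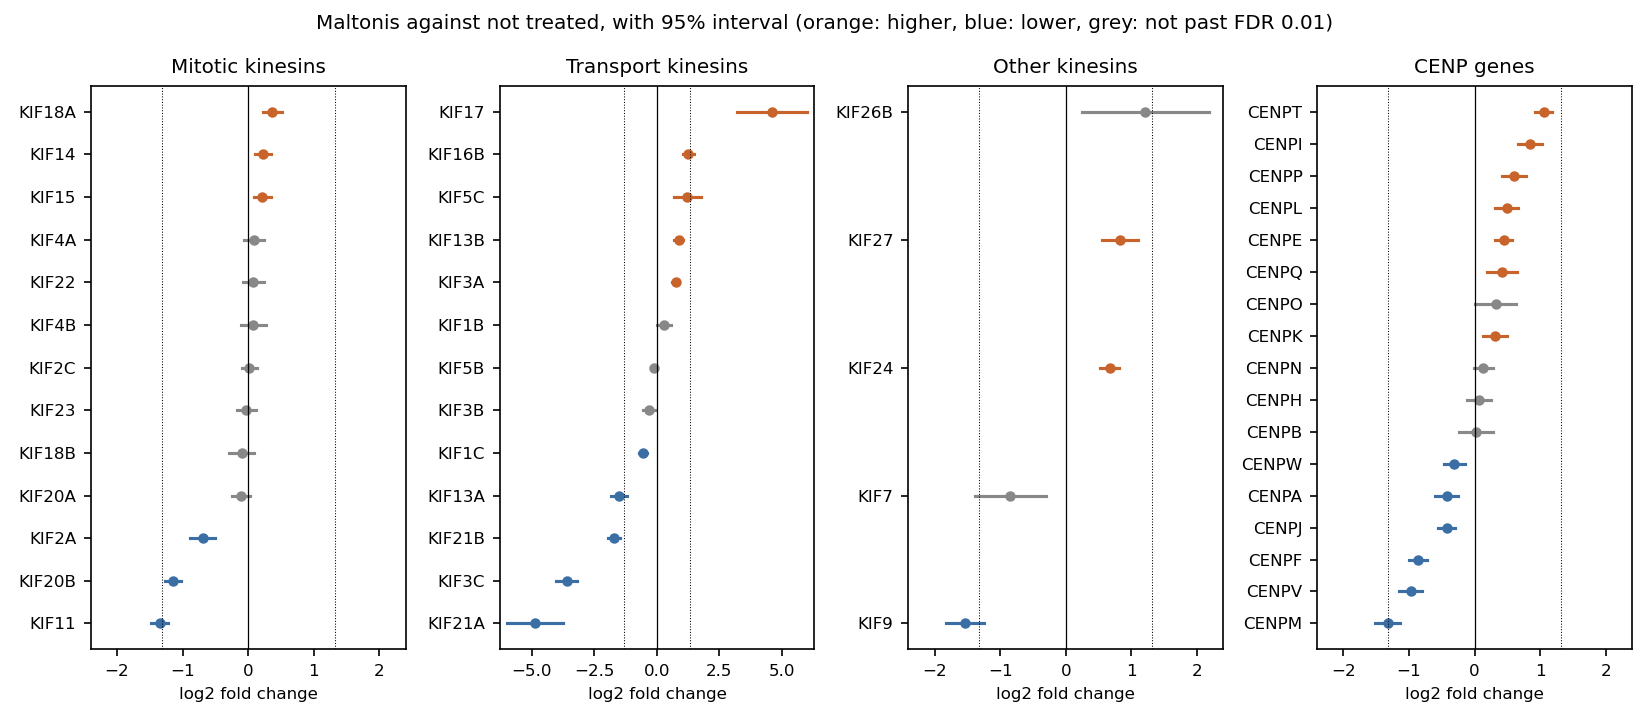
Log2 fold change, maltonis against not treated, of the 48 members tested in 4 panels by class, as points with 95% intervals from edgeR; orange is higher, blue lower and grey not past an FDR of 0.01, and dotted lines stand at a 2.5-fold change in either direction. The transport panel has a wider axis, from KIF21A at -4.87 to KIF17 at 4.60, while the mitotic kinesins lie between -1.35 and 0.37.

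Among the 13 mitotic kinesins tested, 3 were higher, 3 were lower and 7 did not pass the test. Of all genes tested, 31.9% were higher and 32.1% were lower. The groups did not overlap in 7 of the 13, and in 76.6% of all genes tested. The median log2 fold change of the class was 0.02. The falls were the larger changes: KIF11, KIF20B and KIF2A. KIF11 slides antiparallel microtubules apart and is needed to form a spindle with separate poles. Its level was 340, 316 and 316 CPM in the not treated libraries and 127, 125 and 130 CPM with maltonis. Every treated library lay far below every untreated one. The log2 fold change was -1.35 (SE 0.0571, adjusted p = 1.79e-07), which brought KIF11 to 0.392 of its untreated level. Per length, KIF11 had the highest mean of the kinesins in not treated cells, at 66.7 ± 2.85 RPKM (CPM per kilobase of exon, SD, n = 3), next to KIF22 at 60.1 ± 5.54 RPKM, and it stood at 26.2 ± 0.518 RPKM after maltonis.

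KIF20B, a motor that works in cytokinesis, measured 236, 221 and 225 CPM without treatment and 103, 103 and 104 CPM with it. The groups were well apart, and the log2 fold change was -1.14 (SE 0.0538, adjusted p = 3.07e-07). Its relative KIF20A, which carries the chromosomal passenger complex to the midzone, measured 126, 120 and 114 CPM against 114, 112 and 109 CPM, and its log2 fold change of -0.10 (95% interval -0.24 to 0.03, adjusted p = 0.149) did not pass the threshold. Of the summed RPKM of the pair, KIF20B held 52.3% ± 0.900 (SD, n = 3) without treatment and 34.8% ± 0.632 with maltonis, so that the larger share passed from KIF20B to KIF20A.

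KIF2A, which takes microtubules apart at spindle poles, measured 124, 123 and 139 CPM in not treated and 71.4, 83.6 and 83.4 CPM in maltonis-treated libraries. The highest treated library stayed below the lowest untreated one, with a log2 fold change of -0.69 (SE 0.0823, adjusted p = 7.21e-05). Exons of IPO11 on the same strand overlap 8.97% of the KIF2A exon length. KIF2C, the relative that corrects faulty attachments at the centromere, held 203 to 214 CPM without treatment and 210 to 211 CPM with it. Its log2 fold change was 0.02, with a 95% interval of -0.10 to 0.13 (adjusted p = 0.789).

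The 3 mitotic kinesins that were higher moved by less. KIF18A, which dampens chromosome movements at the spindle equator, measured 56.8, 55.0 and 57.2 CPM and then 68.7, 73.5 and 75.6 CPM (log2 fold change 0.37, SE 0.0625, adjusted p = 0.00066). KIF14, a cytokinesis motor, measured 155, 157 and 161 CPM and then 179, 186 and 187 CPM (log2 fold change 0.22, SE 0.0522, adjusted p = 0.004). KIF15, which can help KIF11 to keep poles apart, measured 116, 109 and 109 CPM and then 130, 128 and 130 CPM (log2 fold change 0.22, SE 0.0551, adjusted p = 0.00616). In all 3 genes the groups did not overlap, which held for 76.6% of all genes tested. The calls of KIF14 and KIF15 lay near the threshold, and each was lost when any of several libraries was left out. The highest adjusted p was 0.0407 for KIF14, without maltonis replicate 2, and 0.0382 for KIF15, without not treated replicate 2. In either case KIF18A was then the only mitotic kinesin called higher. Over the alternatives the log2 fold change was 0.19 to 0.34 for both genes.

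KIF23, a subunit of the centralspindlin complex of the midzone, measured 98.4, 90.6 and 91.5 CPM in not treated and 96.3, 91.4 and 87.4 CPM in maltonis-treated cells. The groups overlapped, and the log2 fold change was -0.03 (95% interval -0.17 to 0.12, adjusted p = 0.71). KIF22, a chromosome arm motor, and KIF18B, a partner of KIF2C at microtubule ends, had adjusted p-values of 0.337 and 0.313. The chromokinesins KIF4A and KIF4B share 14.4% and 14% of their 50-base stretches with each other or with a related pseudogene, so their reads may have been split. Counted as 1 gene, a choice made after seeing the data, they had a log2 fold change of 0.09 (adjusted p = 0.234).

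**Figure D2:**
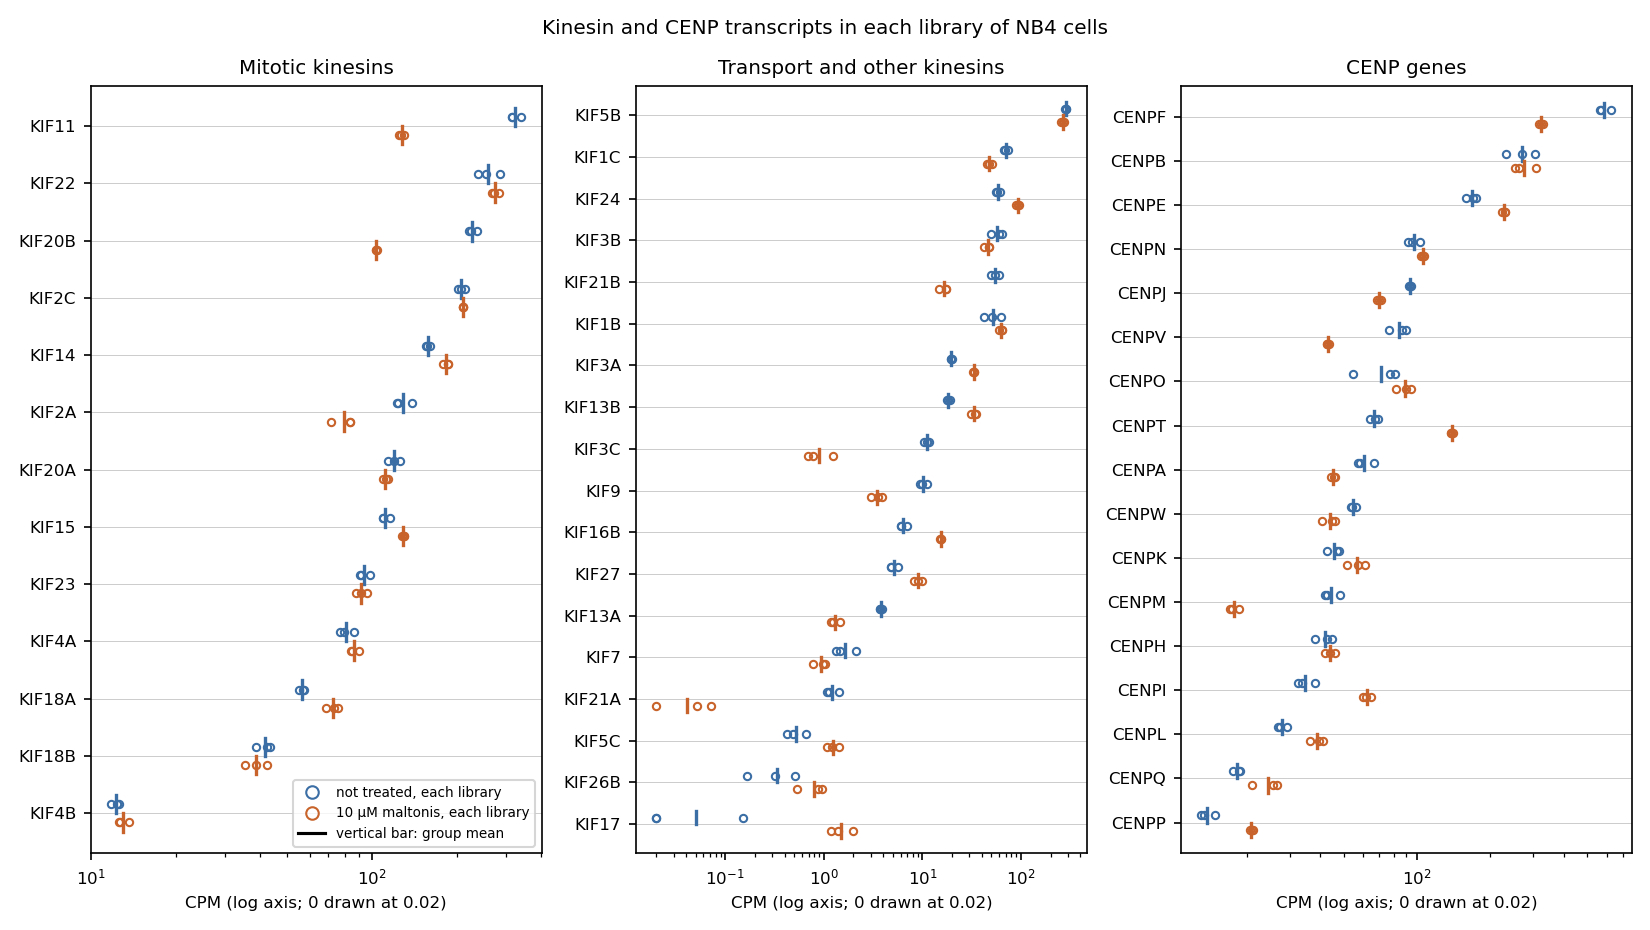
CPM of each of the 48 members tested in each library on a log axis, in 3 panels; blue circles are not treated libraries, orange circles libraries with 10 µM maltonis, vertical bars the group means, and a value of 0 is drawn at 0.02. Among the mitotic kinesins, KIF11 and KIF20B show the widest gaps between the groups, and KIF21A and KIF17 show libraries at 0.

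Among the 13 transport kinesins tested, 5 were higher, 5 were lower and 3 did not pass the test. Of all genes tested, 31.9% were higher and 32.1% were lower. The class held 5 of the 8 members with the larger change, with 1 upward (KIF17) and 4 downward (KIF3C, KIF13A, KIF21A and KIF21B). Per length these 5 were low, with no group mean above the 4.47 RPKM of KIF21B in not treated cells. Over all genes tested, 9.96% met the larger change upward and 10.4% downward. The groups did not overlap in 12 of 13, and in 76.6% of all genes tested. The median log2 fold change of the class was -0.12.

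The heterotrimeric kinesin that moves cargo inside cilia and in the cytoplasm is made of KIF3A, either KIF3B or KIF3C, and the adaptor KIFAP3. KIF3C measured 11.7, 10.5 and 11.2 CPM in not treated libraries and 0.775, 0.686 and 1.24 CPM in maltonis-treated ones. No treated library came near an untreated one, and the log2 fold change was -3.62 (SE 0.187, adjusted p = 4.84e-07). KIF3A rose from 19.5, 19.7 and 20 CPM to 32.3, 33.5 and 33.3 CPM (log2 fold change 0.74, adjusted p = 1.04e-05). KIFAP3 rose from 19.4 to 20 CPM to 31.3 to 32.7 CPM (log2 fold change 0.70, adjusted p = 1.65e-05). KIF3B measured 49.1, 60.1 and 63.5 CPM and then 42.0, 47.7 and 47.9 CPM, which did not pass the threshold (log2 fold change -0.33, adjusted p = 0.0185), although the adjusted p was 0.000777 without not treated replicate 1 and 0.000374 with the file-name code as a term. Of the summed RPKM of KIF3B and KIF3C, KIF3C held 15.7% ± 2.41 (SD, n = 3) without treatment and 1.83% ± 0.535 with maltonis. KIF17, the homodimeric motor of the same family, had 5 counts over the not treated libraries, all in replicate 3, and 118 counts over the maltonis libraries. Its CPM was 0, 0 and 0.151 and then 1.96, 1.4 and 1.17. The ratio of summed counts, scaled by library size, was 25.7 (95% interval 10.7 to 80.5, counting error only). The fitted log2 fold change was 4.60 (adjusted p = 0.000143). That fitted value rested on few counts: it was 8.33 without not treated replicate 3, where the untreated group had no count left, and 3.88 without not treated replicate 2.

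**Figure D3:**
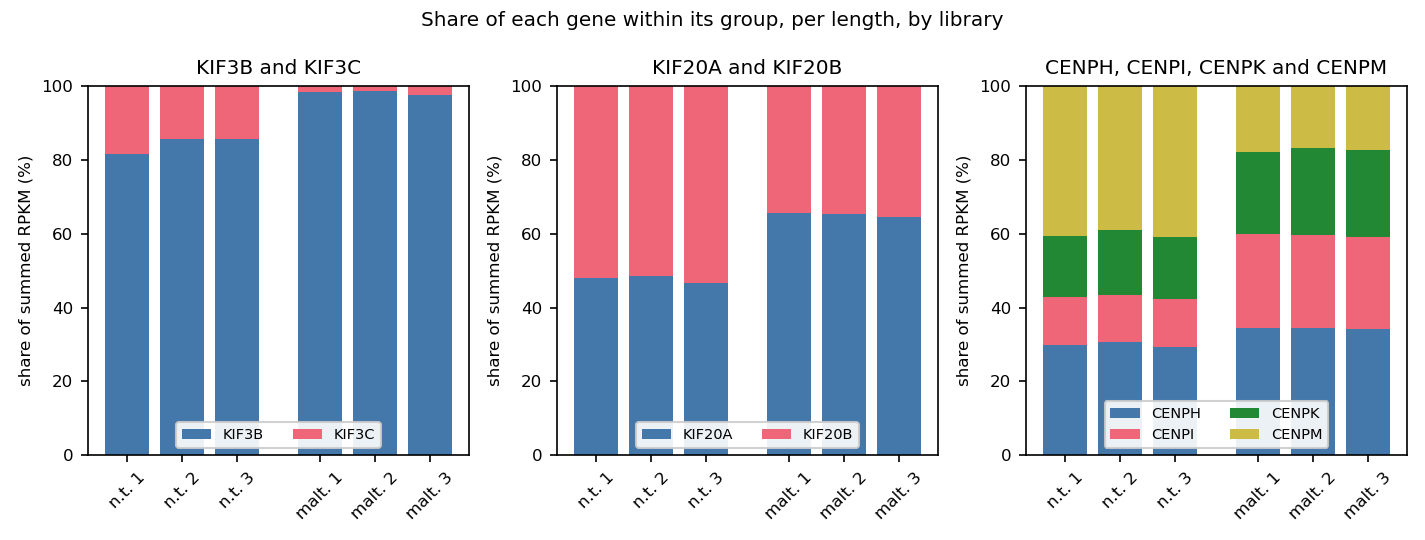
Share of each gene in the summed RPKM of its group, in percent, as stacked bars that reach 100 for each library; n.t. is not treated and malt. is 10 µM maltonis. KIF3C shrinks from 15.7% to 1.83% of its pair, KIF20B from 52.3% to 34.8%, and CENPM from 40.1% to 17.4% of its group of 4, and the 3 libraries of a group look alike.

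Conventional kinesin is built from KIF5 heavy chains and light chains that bind cargo. KIF5B measured 282, 289 and 289 CPM without treatment and 252, 269 and 272 CPM with maltonis. The groups did not overlap, but the log2 fold change of -0.12 (95% interval -0.24 to 0.01, adjusted p = 0.083) did not pass the threshold. KIF5B held at least 99.6% of the summed RPKM of the KIF5 genes in every library. KIF5C, mainly known from neurons, rose from 0.426, 0.662 and 0.483 CPM to 1.08, 1.43 and 1.21 CPM (log2 fold change 1.21, adjusted p = 0.00156, or 0.0117 without maltonis replicate 2). KIF5A had 0 counts over the not treated and 18 over the maltonis libraries. With the untreated group set to 3 counts, this is at least 6.53-fold higher after scaling by library size.

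Of the light chains that join KIF5B to its cargo, KLC1 and KLC2 were lower and KLC4 was higher. KLC2 measured 19.2, 16.1 and 16.6 CPM and then 2.48, 1.85 and 1.42 CPM (log2 fold change -3.20, adjusted p = 5.83e-07). KLC4 measured 11.9, 12.5 and 12.5 CPM and then 60.8, 58.9 and 62.3 CPM (log2 fold change 2.30, adjusted p = 3.65e-08). The groups were far apart in both genes and in opposite directions. KLC1 fell by 0.55 on the log2 scale (adjusted p = 2.75e-05). Per length, KLC1 was the highest light chain without treatment, at 4.83 ± 0.0425 RPKM (SD, n = 3), and KLC4 after maltonis, at 9.45 ± 0.265 RPKM. In CPM the 2 overlapped after maltonis, at 61.2 to 65.1 for KLC1 and 58.9 to 62.3 for KLC4. Their order per length therefore rested on the summed exon lengths, 19251 bases for KLC1 and 6421 for KLC4. Over the 13 light chains and cargo adaptors tested, 4 were higher, 4 were lower and 5 did not pass. Of all genes tested, 31.9% were higher and 32.1% were lower. The adaptor TRAK2, which links kinesin to mitochondria, had a log2 fold change of -0.81 (adjusted p = 9.12e-06).

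Both KIF21 motors, which restrain microtubule growth, were lower. KIF21B measured 54.5, 49.2 and 59.4 CPM and then 17.2, 17.3 and 14.9 CPM (log2 fold change -1.72, SE 0.0978, adjusted p = 8.05e-07). KIF21A measured 1.12, 1.08 and 1.42 CPM and then 0.0516, 0 and 0.071 CPM. It had 107 counts over the untreated and 3 over the treated libraries. Scaled by library size, the ratio of untreated to treated was 32.8 (95% interval 10.9 to 162, counting error only). The fitted log2 fold change was -4.87 (adjusted p = 2.56e-05), and it was -4.19 without maltonis replicate 2 and -5.72 without maltonis replicate 3. KIF21A was thus near the limit of detection after maltonis, and KIF21B made up at least 97.2% of the pair's RPKM in every library.

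The KIF1, KIF13 and KIF16 motors, which carry vesicles and endosomes, went in different directions. KIF13A measured 3.68, 3.89 and 3.74 CPM and then 1.19, 1.25 and 1.46 CPM (log2 fold change -1.53, SE 0.142, adjusted p = 1.49e-05). Its paralog KIF13B measured 18.2, 17.7 and 18.9 CPM and then 34.6, 34.1 and 31.2 CPM (log2 fold change 0.87, adjusted p = 9.28e-06). The groups did not overlap in either gene. KIF16B, an early endosome motor, measured 6.02, 6.13 and 7 CPM and then 15.3, 15.2 and 15.4 CPM (log2 fold change 1.26, SE 0.0939, adjusted p = 3.97e-06). KIF1C fell by 0.55 on the log2 scale (adjusted p = 0.000117), and KIF1B did not pass the threshold (log2 fold change 0.27, adjusted p = 0.0801, or 0.00453 without not treated replicate 3).

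Among the 5 other kinesins tested, 2 were higher, 1 was lower and 2 did not pass, where 31.9% of all genes were higher and 32.1% were lower. The groups did not overlap in any of the 5, and in 76.6% of all genes tested. KIF9, known from motile cilia and sperm tails, measured 10.0, 11.1 and 9.47 CPM and then 3, 3.88 and 3.51 CPM (log2 fold change -1.54, SE 0.127, adjusted p = 7.23e-06). KIF24, which restrains cilium formation at centrioles, measured 57.7, 56.4 and 61.2 CPM and then 95.7, 93.4 and 89.4 CPM (log2 fold change 0.67, SE 0.0615, adjusted p = 1.43e-05). KIF27 measured 4.85, 4.83 and 5.64 CPM and then 8.21, 9.99 and 9.02 CPM (log2 fold change 0.83, SE 0.12, adjusted p = 0.000236), but 29.6% of its 50-base stretches occur in other annotated loci. KIF7, a regulator of Hedgehog signalling, did not pass the threshold (log2 fold change -0.84, adjusted p = 0.0108, or 0.00698 without not treated replicate 1 and 0.00856 with the file-name code as a term). KIF26B did not pass it either (log2 fold change 1.21, adjusted p = 0.0275, or 0.00892 without not treated replicate 3). Exons on the opposite strand overlap 17.9% of KIF9 and 11.8% of KIF7, and whether counting used the strand is not given in the sources used here.

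All 17 CENP genes were tested, of which 7 were higher, 6 were lower and 4 did not pass, with a median log2 fold change of 0.13. Of all genes tested, 31.9% were higher and 32.1% were lower. The groups did not overlap in 15 of the 17, and in 76.6% of all genes tested. CENPA, the histone variant that marks centromeres, measured 57.2, 66.7 and 58.3 CPM without treatment and 46.2, 45.4 and 44.3 CPM with maltonis. All treated libraries lay below all untreated ones, with a log2 fold change of -0.42 (SE 0.0759, adjusted p = 0.000886). Exons of SLC35F6 on the same strand overlap 6.96% of the CENPA exon length. CENPC1, the gene of the platform protein CENP-C, measured 34.8, 34.1 and 33.8 CPM and then 56.0, 56.1 and 58.0 CPM (log2 fold change 0.73, adjusted p = 7.26e-06). CENPL, which with CENPN binds the CENPA nucleosome, measured 29.1, 27.4 and 26.9 CPM and then 36.2, 41.2 and 39.5 CPM (log2 fold change 0.49, SE 0.0757, adjusted p = 0.000357). CENPN and the satellite DNA-binding CENPB did not pass the threshold (adjusted p = 0.0859 and 0.852). CENPA was thus lower while CENPC1 and CENPL were higher.

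CENPH, CENPI, CENPK and CENPM form 1 subcomplex of the inner kinetochore, and their transcripts did not move together. CENPM measured 48.2, 42.7 and 42.0 CPM and then 17.3, 17.0 and 18.6 CPM (log2 fold change -1.33, SE 0.0823, adjusted p = 1.33e-06). CENPI measured 38.0, 33.7 and 32.3 CPM and then 59.8, 61.6 and 64.7 CPM (log2 fold change 0.84, SE 0.0788, adjusted p = 1.57e-05). CENPM was lower and CENPI higher in every treated library. CENPK was higher by 0.31 on the log2 scale (adjusted p = 0.00788, or 0.0455 without maltonis replicate 3), and CENPH did not pass (0.07, 95% interval -0.11 to 0.25, adjusted p = 0.442). Of the summed RPKM of the 4 genes, CENPM held 40.1% ± 0.971 (SD, n = 3) without treatment and 17.4% ± 0.525 with maltonis, and CENPI 12.9% ± 0.240 and 25.2% ± 0.281.

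In the subcomplex of CENPO, CENPP, CENPQ, CENP-U and CENP-R, CENPP measured 13.0, 14.8 and 13.3 CPM and then 21.1, 20.5 and 20.9 CPM (log2 fold change 0.60, SE 0.0806, adjusted p = 0.000153). CENPQ was higher by 0.42 (adjusted p = 0.00479, or 0.0315 without maltonis replicate 2), and CENPO did not pass (0.32, adjusted p = 0.0587, or 0.0015 with the file-name code of the libraries as a term). MLF1IP, the gene of CENP-U, was higher by 0.66 (adjusted p = 1.61e-05). ITGB3BP, the gene of CENP-R, went the other way, with 30.8, 32.7 and 32.0 CPM and then 10.2, 12.3 and 13.4 CPM (log2 fold change -1.40, adjusted p = 3.55e-06). Exons of other genes on the opposite strand overlap 42.7% of CENPP and 31.4% of CENPO.

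CENPT, which reaches from centromeric DNA to the outer kinetochore, measured 69.1, 67.0 and 63.9 CPM and then 141, 138 and 138 CPM. The treated libraries were all well above the untreated ones, with a log2 fold change of 1.06 (SE 0.0569, adjusted p = 6.06e-07), and 19.6% of its exon length is overlapped on the opposite strand. Its partner CENPW was lower by a log2 fold change of -0.31 (adjusted p = 0.00309, or 0.0158 without not treated replicate 2). The CENPW call also depended on the scaling: the log2 fold change was -0.22 (adjusted p = 0.017) with upper quartile scaling and -0.19 (adjusted p = 0.0287) with total counts only. APITD1, the gene of CENP-S, measured 9.48, 10.1 and 11.9 CPM and then 3.36, 3.19 and 4.33 CPM (log2 fold change -1.53, adjusted p = 2.02e-05), and STRA13, the gene of CENP-X, did not pass the threshold (adjusted p = 0.829).

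The remaining CENP proteins are not inner kinetochore subunits. CENPE, the kinesin that carries chromosomes to the spindle equator, measured 175, 158 and 170 CPM and then 229, 224 and 229 CPM (log2 fold change 0.44, SE 0.0578, adjusted p = 0.00013). CENPF, a large protein of the outer corona, measured 562, 570 and 628 CPM and then 317, 328 and 321 CPM (log2 fold change -0.86, SE 0.0616, adjusted p = 2.97e-06). These corona proteins therefore changed in opposite directions. CENPV measured 90, 86.8 and 76.6 CPM and then 43.6, 42.8 and 42.5 CPM (log2 fold change -0.97, SE 0.0742, adjusted p = 4.44e-06). CENPJ, a protein of centriole growth, was lower by a log2 fold change of -0.43 (adjusted p = 0.000109).

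**Figure D4:**
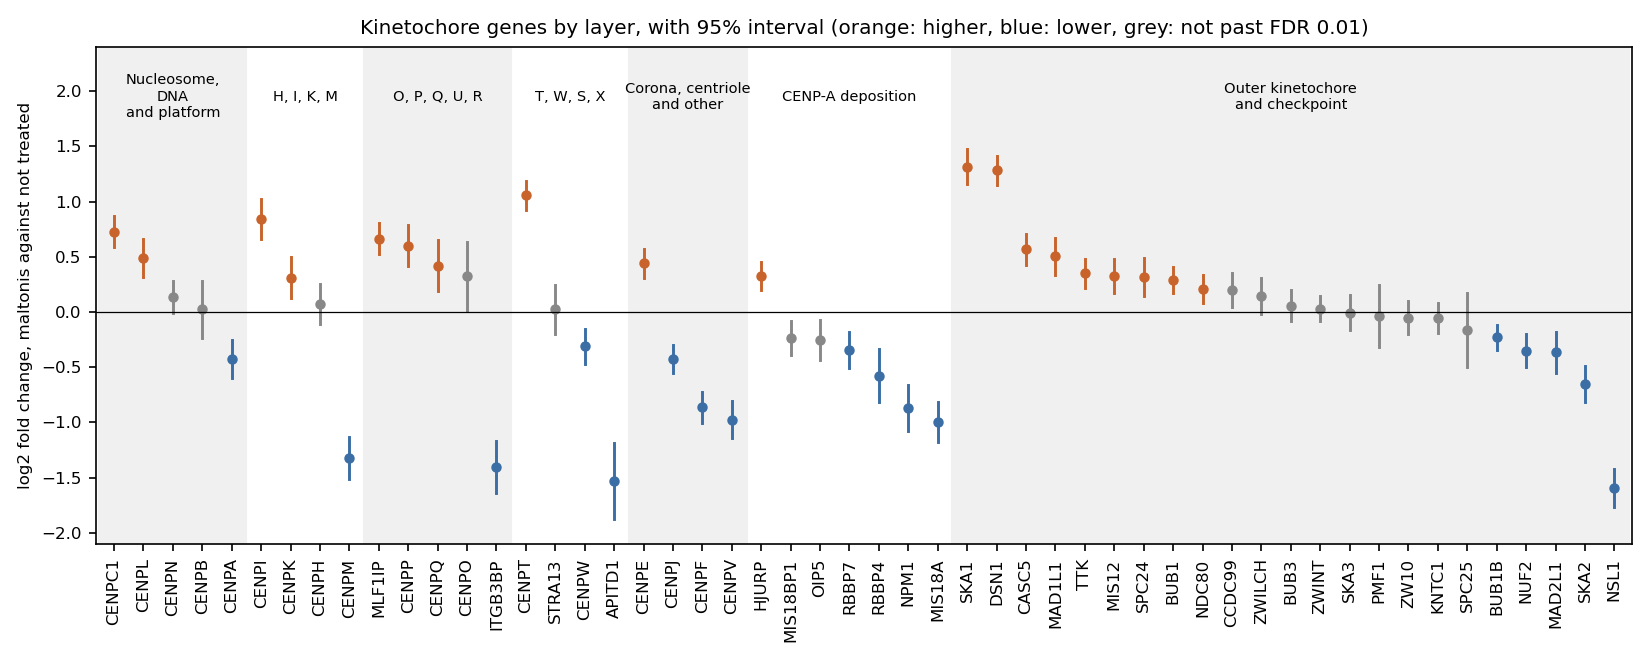
Log2 fold change, maltonis against not treated, with 95% intervals from edgeR for kinetochore genes ordered by layer on the horizontal axis; orange is higher, blue lower and grey not past an FDR of 0.01. Each layer holds genes on both sides of 0, from APITD1 at -1.53 and NSL1 at -1.60 to SKA1 at 1.315 and DSN1 at 1.28.

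Of 7 tested genes that deposit CENPA or its histone partners, 1 was higher and 4 were lower. Beside this and the other lists here, 31.9% of all genes tested were higher and 32.1% were lower. The chaperone HJURP had a log2 fold change of 0.32 (adjusted p = 0.000601), against -0.995 for MIS18A (adjusted p = 5.54e-06) and -0.87 for NPM1 (adjusted p = 2.96e-05). Of 23 outer kinetochore and checkpoint genes, 9 were higher, 5 were lower and 9 did not pass. NSL1 and DSN1, subunits of the same MIS12 complex, had log2 fold changes of -1.60 (adjusted p = 3.12e-07) and 1.28 (adjusted p = 2.38e-07), and SKA1, of a complex that holds on to microtubules, had 1.315 (adjusted p = 5.74e-07). Of 12 genes that work with mitotic kinesins, 4 were higher, 1 was lower and 7 did not pass. HMMR had a log2 fold change of 0.80 (adjusted p = 3.55e-06), the minus-end motor KIFC1 0.69 (adjusted p = 9.37e-06) and the midbody kinase CIT 0.52 (adjusted p = 0.00286).

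Levels of mitotic genes also follow the share of cells in each phase of the cycle, and in these bulk libraries fewer cells of a kind and less RNA per cell cannot be told apart. Of 12 S phase genes, 6 were lower and 6 did not pass, where 32.1% of all genes tested were lower. Their summed level was 5384 to 5589 CPM in not treated and 4319 to 4498 CPM in maltonis-treated libraries. Of 13 G2 and M phase genes, 5 were higher, 3 were lower and 5 did not pass, where 31.9% of all genes tested were higher. Their summed levels overlapped, at 2867 to 3275 CPM and 2895 to 3084 CPM. BIRC5 had a log2 fold change of -2.05 (adjusted p = 8.49e-08), PLK1 -1.55 (adjusted p = 4.96e-05) and UBE2C 1.41 (adjusted p = 2.17e-06). The summed level of the mitotic kinesins was 1786 to 1879 CPM without treatment and 1521 to 1524 CPM with maltonis, and that of the CENP genes was 1762 to 1804 CPM and 1616 to 1632 CPM. Abundant members weigh most in these sums: CENPF alone went from a mean of 586 to 322 CPM, and KIF11 from 324 to 127 CPM. By gene, 7 CENP genes were higher and 6 lower, and 3 mitotic kinesins were higher and 3 lower. The median log2 fold change was 0.13 for the CENP genes and 0.02 for the mitotic kinesins. The part of the cell cycle in the members' changes was not tested.

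File names of replicate 1 carry another code than those of replicates 2 and 3, and the meaning of the code is not stated. Computed apart in each code, the difference between maltonis and not treated had the same sign in 10 of 13 mitotic kinesins, 13 of 13 transport kinesins, 5 of 5 other kinesins and 16 of 17 CENP genes, and in 11927 of all 13209 genes tested. With the code as a term, no called member was lost and KIF3B, KIF7 and CENPO were added to those called.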

How the data were processed

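Per the labels, total RNA of NB4 cells was sequenced from stranded libraries depleted of ribosomal RNA. The authors deposited 1 table of raw counts per library, the whole number of reads on each gene symbol. The submitters' processing notes name TopHat, Bowtie2, HTSeq and hg19, while versions, annotation and strand setting are not given in the sources used here, so overlapping and antisense genes are uncertain. Groups came from the sample labels.

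The test was edgeR's quasi-likelihood test (edgeR 4.0.16, R 4.3.3) after TMM scaling and filterByExpr, fitted to the 6 libraries with no covariate. P-values were adjusted by the Benjamini-Hochberg method over the 13209 genes tested. Adjusted p-values come from this fit, except where a left-out library, another scaling or an added term is named beside the value. CPM used TMM-scaled library sizes. A member was called at an FDR under 0.01, and the larger change followed the study's fold change criterion, about 2.5-fold. The study's calls also asked for a minimum RPKM in the group with the higher level, which was not applied here. Members with the larger change are therefore not all genes that the study's full rule would call. SE was the size of the log2 fold change divided by the square root of F. RPKM used the summed exon length of GENCODE 29, and promoters came from RefSeq (GRCh38.p14), so neither shares the build of the counts. Ratios of summed counts were scaled by the TMM-scaled library sizes of the groups, and their intervals cover counting error only. Replicate libraries were compared pairwise and none were duplicates.

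The members and gene lists were chosen with earlier results of these data known. Called members with the largest change in each class, up to 6 mitotic, 6 transport, 3 other kinesins and 8 CENP genes, are given by library, together with KIF11, KIF23, KIF5B, CENPA, CENPC1, CENPE and CENPF for their role, and up to 3 called genes of each related list. Further genes, such as KIF3A, KIF5C, KIF13B, KIFAP3 and KLC1, were chosen after their values were seen to complete a family or complex. Alternatives were other scalings, DESeq2 1.42.0, other filters, the replicate block, the file-name code, replicates 2 and 3 only, and each library left out. A log2 threshold of 1 and the sum of KIF4A and KIF4B were added after seeing the data. On simulated counts for this comparison, 184 of 193 changed genes among 12792 were recovered (95.3%), with 1 false call. The simulated log2 changes were 1 or more in size, in few genes, with the same dispersion for every gene and no difference between file-name codes. The simulation therefore does not cover the smaller changes called here, nor data in which most genes change. Protein sequences were not analysed here, and 1 further marker of other cell types, beyond the 7 given, is not reported here.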

Additional observations from a re-analysis of the deposited data

How the results depend on the processing

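Over 15 alternatives, 26 of the 32 called members passed the threshold under every one, and no called member changed sign. CENPK, CENPQ, CENPW, KIF14, KIF15 and KIF5C lost their call under at least 1. The number of mitotic kinesins that were higher was 3, and between 1 and 3 when 1 library was left out, with 1 without not treated replicate 2, without maltonis replicate 2 or without maltonis replicate 3. The number of other kinesins that were lower was 1, and became 2 with no filter on low counts, with the code as a term and with replicates 2 and 3 only, KIF7 being added, and was 1 to 2 when 1 library was left out. With the replicate block it was also 2. Same-numbered libraries correlated at 0.301, 0.0852 and 0.161 in their deviations. Not treated replicate 2 correlated best with maltonis replicate 3 (0.123), so the numbers were not taken to pair the samples. Replicate 1 of either group correlated negatively with replicates 2 and 3 of the other, from -0.162 to -0.232. The replicate 1 libraries thus resembled each other, and they share a file-name code that the main fit left out. The block lost no call and added CENPO, KIF26B, KIF3B and KIF7. The median of the transport kinesins was -0.12 and turned to 0.00197 with total counts only, where the median of all genes shifted to 0.133 (0.101 with upper quartile scaling). The median of the other kinesins turned from 0.67 to -0.071 with CPM above 1 in 3 libraries, where fewer members were tested. Asking for a log2 fold change beyond 1, an alternative chosen after seeing the data, gave 12 members with the larger change in place of 8. Of these, 4 were higher and 8 were lower, where 14.4% of all genes tested passed upward and 14.6% downward. The cause of the other shifts was not tested. Members under a few CPM, such as KIF17, KIF21A and KIF5A, are limited by depth.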
